A study of Rattus norvegicus with 18 samples.

Results

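Bone matrix made during fracture repair was followed through 8 genes of osteoblasts and mineralized tissue, Alpl, Sparc, Ibsp, Bglap, Spp1, Ptprv, Pth1r and Mgp, chosen by name and represented by 14 probe sets among the 8740 tested, or 8 genes among 4736 with a probe set of 1 symbol. RNA was measured on 18 Affymetrix rat arrays of the middle of the femoral shaft, which holds the fracture callus with its cortical bone and marrow. Female Sprague-Dawley rats were young (6 weeks old at fracture), adult (26 weeks) or older (52 weeks). At each age 1 array was made at 0 time, from rats with an unbroken femur. The paper names these rats no-fracture sham controls, and whether they had surgery is not stated. At each age 1 array was also made at each of 5 times after a closed mid-shaft fracture around an intramedullary rod. These times were 0.4 (given as 3 days in the labels), 1, 2, 4 and 6 weeks. Each array holds the pooled RNA of 2 rats, so there is no replicate of an age at a time point. The controls have the age at fracture, and rats of the later times had aged since then. Growth or ageing over those weeks cannot be told apart from the effect of fracture. The 3 ages served as the replicates of each week. The fit of time has a term for age, which takes out a constant difference between ages. A p-value for a change with time therefore rests on the spread left after that, pooled over all times, and not on the spread between ages at 1 week. The labels call the tissue of the unbroken controls callus as well, and they were taken as controls from their titles and descriptions.

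Osteoblasts mature in steps. Proliferating precursors lay down collagen I, maturing cells switch on alkaline phosphatase and osteonectin, and cells that mineralize their matrix make bone sialoprotein and, last, osteocalcin. In a fracture callus this sequence runs first in the woven bone under the periosteum and again where cartilage is replaced by bone. Alpl, tissue-nonspecific alkaline phosphatase, removes the mineral inhibitor pyrophosphate, and Sparc, osteonectin, binds collagen and calcium: both were taken as early genes. Ibsp, bone sialoprotein, seeds mineral crystals, and Bglap, osteocalcin, is the vitamin K-dependent protein of mature osteoblasts: both were taken as late genes. Spp1, osteopontin, is also made by osteoclasts and macrophages, Ptprv is the osteotesticular receptor tyrosine phosphatase, Pth1r is the receptor of parathyroid hormone, and Mgp, matrix Gla protein, holds calcification back in cartilage and vessel walls. In tissue RNA, fewer cells of a type and less RNA per cell cannot be told apart.

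Fitted over the 3 ages, 7 of the 8 genes were called higher than in the unbroken femur at 1 or more of the first 3 times after fracture, and the late gene Bglap was called lower. At 0.4 week limma called 5 genes higher (Alpl, Sparc, Ibsp, Spp1 and Pth1r), where 14.1% of all probe sets were called higher, and 1 lower (Bglap), where 17.1% were called lower. At 1 week 6 were higher (Sparc, Ibsp, Spp1, Ptprv, Pth1r and Mgp), against 14.6% of all probe sets, and 1 lower (Bglap), against 20.4%. The count at 2 weeks was 6 higher (all but Bglap and Ptprv), against 9.49%. By 4 weeks 2 were higher (Ibsp and Spp1), against 3.31%, and on the last arrays 0, against 0.561%. At 6 weeks 6 members had an unadjusted limma p under 0.05, as had 1792 of the 8740 probe sets in either direction. Over the 5 later weeks together the moderated F test called 4 genes (Ibsp, Spp1, Pth1r and Bglap), against 26.4% of all probe sets. The test has no direction: the largest single change was a rise for Ibsp, Spp1 and Pth1r and a fall for Bglap. The F test called 6 genes when the young rats were left out and 0 when the adult or the older rats were. The counts of genes higher at 0.4, 1 and 2 weeks were 7, 7 and 7 without young rats, but 0 at each of these weeks without adult or without older rats. At 4 and 6 weeks they were 5 and 8 without young rats and again 0 without either other age. The shares above belong to the fit of all 18 arrays. Those of the fits without an age are not given here, so these counts have no background beside them.

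The promoters of the early pair and the late pair are printed because the comparison of early with late weeks turns on these 4 genes. Sequences are RefSeq's, build GRCr8, minus strand of the chromosome and read in the direction of the gene, from 250 bases before to 50 bases after the annotated start. Capitals mark letters searched on both strands: AACCACA, a core of RUNX sites, TATAAA, and CCAAT. No 2 of the marked stretches overlap.
Alpl: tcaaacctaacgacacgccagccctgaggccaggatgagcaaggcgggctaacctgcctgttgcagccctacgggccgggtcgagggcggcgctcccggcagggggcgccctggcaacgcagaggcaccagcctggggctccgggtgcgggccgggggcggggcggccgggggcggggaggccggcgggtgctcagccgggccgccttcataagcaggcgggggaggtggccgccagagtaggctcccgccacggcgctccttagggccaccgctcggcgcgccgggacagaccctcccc
Sparc: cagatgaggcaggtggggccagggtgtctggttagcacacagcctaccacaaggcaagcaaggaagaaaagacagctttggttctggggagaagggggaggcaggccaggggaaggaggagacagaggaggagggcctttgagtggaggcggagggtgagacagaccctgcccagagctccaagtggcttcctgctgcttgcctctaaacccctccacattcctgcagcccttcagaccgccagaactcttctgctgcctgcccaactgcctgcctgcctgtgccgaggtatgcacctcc
Ibsp: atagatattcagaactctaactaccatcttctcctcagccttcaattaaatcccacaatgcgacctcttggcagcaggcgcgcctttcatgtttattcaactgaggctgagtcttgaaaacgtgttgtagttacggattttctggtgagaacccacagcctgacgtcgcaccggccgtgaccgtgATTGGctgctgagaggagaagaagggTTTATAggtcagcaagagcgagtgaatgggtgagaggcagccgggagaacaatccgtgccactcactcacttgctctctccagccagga
Bglap: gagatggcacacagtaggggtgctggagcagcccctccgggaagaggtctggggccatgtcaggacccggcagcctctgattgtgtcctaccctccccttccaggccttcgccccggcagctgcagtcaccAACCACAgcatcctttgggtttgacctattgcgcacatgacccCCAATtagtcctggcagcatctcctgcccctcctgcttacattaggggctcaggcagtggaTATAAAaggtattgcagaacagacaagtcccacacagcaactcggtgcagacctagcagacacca
The windows lie at chr5:155289736-155290035, chr10:40038767-40039066, chr14:5757193-5757492 and chr2:176137269-176137568. Of 33469 rat promoter windows of this length, 5.57% hold AACCACA, 14.2% TATAAA and 37.5% CCAAT. The Bglap window holds all 3, with AACCACA from -119 to -113, CCAAT from -76 to -72 and TATAAA from -15 to -10, counted from the gene's start. The Ibsp window holds CCAAT from -65 to -61 and TATAAA from -39 to -34, both on the strand opposite to the gene and so printed as ATTGG and TTTATA. None of the 3 was in the Alpl or Sparc window, nor in those of Ptprv and Pth1r, and the Spp1 window holds only TATAAA, from -204 to -199. Spp1 and Ibsp lie on the same chromosome, 14, and on the same strand. These are matches of letters and not measured binding sites. Mgp has no promoter in the table used.

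Bglap, osteocalcin, was low at 0.4 and 1 week and higher from 2 weeks on at all 3 ages. In time order, from the control to 6 weeks, its signal was 24622, 9691, 11943.5, 23399.5, 23631 and 23623 in young rats. In adult rats it was 11652, 4217, 5681, 12507, 16362 and 22887, and in older rats 6606, 3759, 3441, 11386, 17257 and 16289. At every age the arrays of 0.4 and 1 week were the lowest of the 6, at 0.39 and 0.49 times the unbroken level in young, 0.36 and 0.49 times in adult and 0.57 and 0.52 times in older rats. From 2 weeks on the adult and older arrays were above their own control, by up to 1.96 times in adult rats at 6 weeks and 2.61 times in older rats at 4 weeks, whereas the young arrays of 2, 4 and 6 weeks stood at 0.95, 0.96 and 0.96 times theirs. Fitted over the ages, Bglap fell by 1.21 on the log2 scale at 0.4 week (SE 0.27, limma adjusted p = 0.0078) and by 1.01 at 1 week (SE 0.27, adjusted p = 0.017). Its log2 differences at 2, 4 and 6 weeks were 0.27, 0.61 and 0.74, with adjusted p of 0.50, 0.19 and 0.16. Without the adult or the older arrays the fall at 0.4 week was -1.08 and -1.41 with adjusted p of 0.17 and 0.057, and that at 1 week -0.99 and -1.04 with 0.17 and 0.11.

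Ibsp, bone sialoprotein, was taken as a late gene but was high from the first array after fracture. Its signal at the 6 times was 1919, 4216, 3886, 5598, 3975 and 3058 in young rats, 367, 5060.4, 5318, 3826, 1731 and 2459.7 in adult rats, and 218, 4636, 6151, 3585, 3288 and 3545 in older rats. All 15 arrays after fracture were above the control of their own age, by 1.59 to 2.92 times in young, 4.72 to 14.5 times in adult and 15.1 to 28.3 times in older rats. The highest array was that of 2 weeks in young rats and that of 1 week in adult and older rats. Ibsp rose by 3.11 on the log2 scale at 0.4 week (SE 0.58, adjusted p = 0.0028), 3.23 at 1 week (adjusted p = 0.0027), 2.99 at 2 weeks (adjusted p = 0.010) and 2.40 at 4 weeks (adjusted p = 0.041), and its difference at 6 weeks was 2.48 (adjusted p = 0.064). The call at 4 weeks was lost without the young arrays of 4 and 6 weeks (log2 difference 2.37, adjusted p = 0.094) and with arrays scaled to their medians (adjusted p = 0.057).

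The young arrays of 4 and 6 weeks differed from the rest in their control probe sets. The ratio of the 3' to the 5' control probe set of Gapdh was 3.48 and 6.57 on the young arrays of 4 and 6 weeks and 1.15 to 1.83 on the other 16, and that of Actb was 2.29 and 3.06, against 1.08 to 2.12. Without these 2 arrays limma called 0 members higher at 4 weeks and 1 at 6 weeks. The shares of all probe sets called in that fit are not given here. The part of RNA quality in the late values was not tested. Median signals ran from 151 to 189 over the 18 arrays, 10.5% to 17.9% of probe sets were below the floor of 20, and 2 arrays correlated with r of 0.816 to 0.978 over all probe sets.

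**Figure D1:**
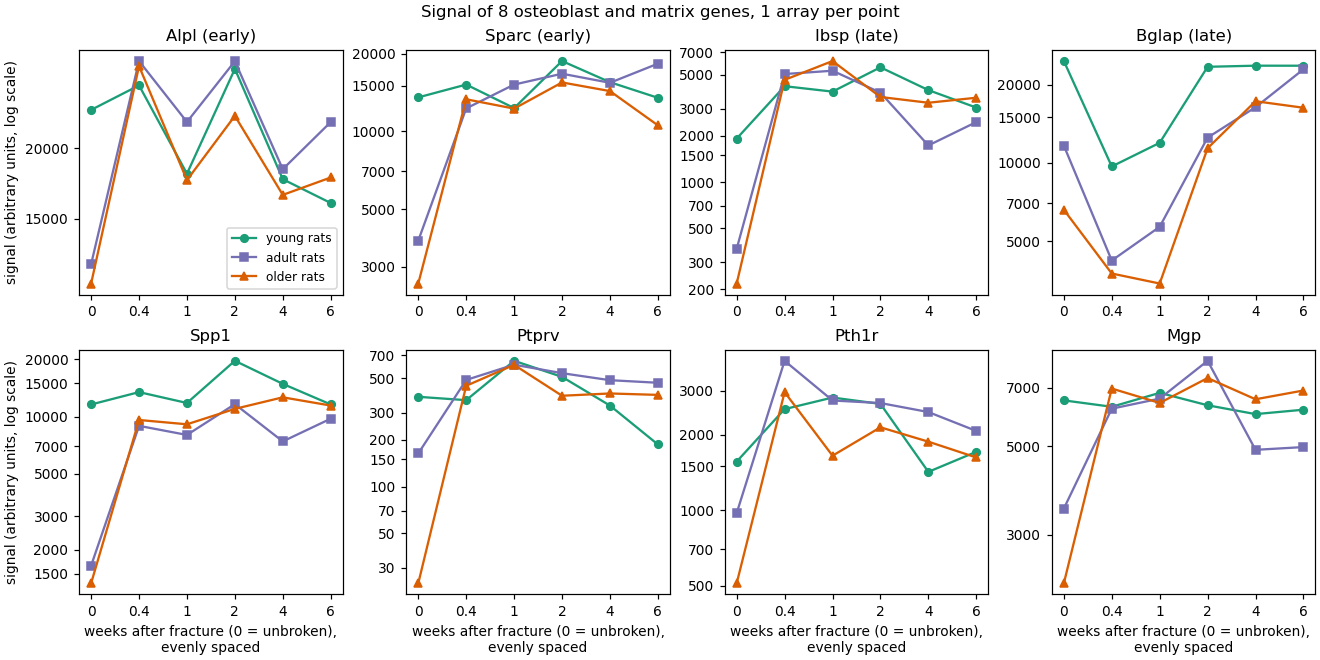
Signal (arbitrary units, log scale) of the probe set that stands for each of the 8 genes against weeks after fracture, evenly spaced, with 1 array per point and lines for young, adult and older rats. The young line starts highest in all 8 panels, and in 7 of them the adult and older lines climb by 0.4 week, while Bglap falls at 0.4 and 1 week at every age and climbs afterwards.

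Alpl and Sparc, the early genes, rose in adult and older rats, and in young rats their brightest probe sets lay between 0.69 and 1.38 times the control. Alpl had signals of 23356, 25803, 18020.4, 27587, 17623 and 15999 at the 6 times in young rats on its brighter probe set, 12479, 28484, 22239, 28466, 18356 and 22229.5 in adult rats, and 11535, 27901, 17560.2, 22794, 16536 and 17746 in older rats. In adult and older rats all 10 arrays after fracture were above the control, by 1.43 to 2.42 times, and in young rats 2 of 5 were. Alpl rose by 0.87 at 0.4 week (SE 0.23, adjusted p = 0.015) and 0.80 at 2 weeks (adjusted p = 0.032). On the adult and older arrays of 0.4 week this probe set had the highest signal of the whole array, 28484 and 27901, and whether the scanner's range held it down was not tested.

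The second probe set of Alpl gave the larger ratios at 0.4 week. It had signals of 1978, 3033, 3127, 3071, 1675 and 1117 in young rats, 1499, 5897, 3095, 2899, 2059 and 2183 in adult rats, and 1086, 5443, 2331, 3179, 1900.1 and 1941 in older rats. At 0.4 week it stood at 3.93 times the control in adult and 5.01 times in older rats, where the brighter probe set stood at 2.28 and 2.42 times. It was called higher at 0.4, 1 and 2 weeks, with log2 changes of 1.64 (SE 0.29, adjusted p = 0.0023), 0.94 and 1.05. The array of 0.4 week was the highest on both probe sets in older rats, while in adult rats the brighter one was about as high at 2 weeks (28466) as at 0.4 week (28484).

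Sparc has 4 probe sets, and 1 of them ran against the other 3. The brightest, Y13714_at, had signals of 13541, 15179, 12310.1, 18716.5, 15503 and 13492 in young rats, 3779.9, 12276, 15177.5, 16719, 15422 and 18282 in adult rats, and 2580.0, 13313, 12252, 15468, 14322 and 10557 in older rats. Its arrays after fracture were 3.25 to 4.84 times the control in adult, 4.09 to 6.00 times in older and 0.91 to 1.38 times in young rats. It rose by 1.41 at 0.4 week (SE 0.41, adjusted p = 0.024), 1.37 at 1 week and 1.73 at 2 weeks (adjusted p = 0.025 and 0.018), with differences of 1.57 and 1.43 at 4 and 6 weeks (adjusted p = 0.051 and 0.098).

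A pair of further probe sets of Sparc followed it. rc_AA891204_s_at had signals of 8104, 11895, 7682, 11658, 11161 and 6694 in young rats, 1159.9, 6685, 10331, 11129, 9724 and 13638 in adult rats, and 578, 8738, 8146, 11268, 10512 and 5711 in older rats, and correlated with Y13714_at at r = 0.99 over the 18 arrays. It was called higher at 0.4, 1 and 2 weeks, by 2.33, 2.30 and 2.69. rc_AA946313_s_at had signals of 15203.5, 14503, 10777, 18918, 9818 and 5519.9 in young rats, 3093.5, 13256, 11277.5, 12338, 8156 and 10980.2 in adult rats, and 1111, 12132, 12075, 11912, 11737.5 and 10798.5 in older rats (r = 0.90). Its fitted log2 differences of 1.22 to 1.91 did not pass at any week, with adjusted p from 0.059 to 0.32, and its young arrays of 4 and 6 weeks stood at 0.65 and 0.36 times the control.

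The fourth Sparc probe set, rc_AA892248_at, fell at every age. Its signals were 11359, 5035, 7802, 4721, 4512 and 6787 in young rats, 18362, 7174, 9729, 7979, 5581 and 6622.5 in adult rats, and 14546, 7742, 9146, 4403, 5697 and 5727 in older rats. All 15 arrays after fracture were below their own control, at 0.30 to 0.69 times it, and limma called it lower at all 5 weeks, with log2 changes from -0.71 at 1 week to -1.47 at 4 weeks and adjusted p from 0.0014 to 0.017. It correlated with Y13714_at at r = -0.75. Its name comes from the platform's annotation, and whether its probes match the Sparc transcript was not tested. The mean of all 4 probe sets gave Sparc log2 changes of 1.11 at 0.4 week and 1.23 at 2 weeks, which did not pass (adjusted p = 0.061 and 0.054).

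**Figure D2:**
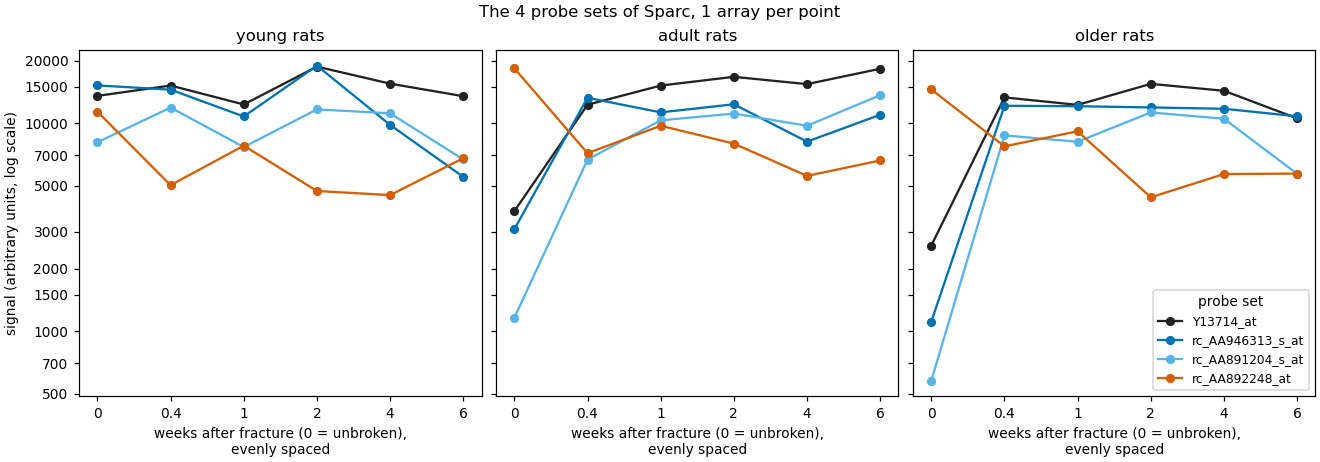
Signal (arbitrary units, log scale) of the 4 probe sets annotated to Sparc against weeks after fracture, evenly spaced, 1 panel per age and 1 array per point. In adult and older rats 3 probe sets climb from 0 to 0.4 week and rc_AA892248_at falls. In young rats the 3 lie between 0.71 and 1.47 times their own 0 week level up to 2 weeks and rc_AA892248_at falls as well.

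Spp1, osteopontin, was called higher up to 4 weeks, as Ibsp was. Its signals at the 6 times were 11577, 13444, 11788.5, 19625, 14849.8 and 11583 in young rats, 1651, 8942, 8012, 11624, 7409.7 and 9751 in adult rats, and 1334.5, 9599, 9112, 10979, 12622 and 11429 in older rats. All 15 arrays after fracture were above their own control, by 1.00 to 1.70 times in young, 4.49 to 7.04 times in adult and 6.83 to 9.46 times in older rats. It was called higher at 0.4 to 4 weeks, with log2 changes of 1.83 (SE 0.48, adjusted p = 0.016), 1.69 (adjusted p = 0.021), 2.21 (adjusted p = 0.014) and 1.92 (adjusted p = 0.047), and its difference at 6 weeks was 1.89 (adjusted p = 0.079). The call at 4 weeks was lost without the young arrays of 4 and 6 weeks (adjusted p = 0.068), with arrays scaled to their medians (0.064) and without the age term (0.087). Osteoclasts also make Spp1: the summed signal of 8 measured osteoclast genes was 21979.7, 15999.5, 36668, 53352, 34857 and 27046 at the 6 times in young rats, 6754, 3892, 15362, 46934, 36159.9 and 42660.4 in adult rats, and 6769, 2678, 9440, 35707, 39073 and 31499.7 in older rats, and their part in the Spp1 values was not tested.

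Pth1r, the parathyroid hormone receptor, had its highest later array at 0.4 week in adult and older rats. Signals of its brightest probe set were 1565, 2533, 2818, 2657.5, 1424 and 1712 in young rats, 975, 3948, 2742, 2679, 2466 and 2073.5 in adult rats, and 512, 2961, 1652, 2144, 1879 and 1625 in older rats. It rose by 1.75 at 0.4 week (SE 0.30, adjusted p = 0.0020), 1.34 at 1 week (adjusted p = 0.0074) and 1.43 at 2 weeks (adjusted p = 0.013), with differences of 1.03 and 0.96 at 4 and 6 weeks (adjusted p = 0.072 and 0.11). A second probe set, AB012944cds_s_at, ran with it (r = 0.93) and reached 7.21 times the control in adult and 9.21 times in older rats at 0.4 week. A further one, M77184_i_at, was dim, between 25.6 and 220 on the 18 arrays, and correlated with the brightest at r = -0.28.

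Ptprv, the osteotesticular phosphatase, was called higher at 1 week alone. Its signals were 379, 360.4, 646, 509, 333 and 187 in young rats, 164, 486, 609.8, 538, 485 and 466 in adult rats, and 23.9, 446, 608, 385, 398 and 389.7 in older rats. The older control array, at 23.9, was close to the floor of 20, so the ratios of 16.1 to 25.4 above it in older rats are imprecise. Ptprv rose by 2.45 at 1 week (SE 0.71, adjusted p = 0.023), and its differences of 1.91 and 2.05 at 0.4 and 2 weeks both had an adjusted p of 0.062.

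Mgp, the calcification inhibitor, stayed level in young rats. Its signals were 6506.5, 6270.5, 6794, 6326, 6012 and 6166 in young rats, 3489, 6203, 6572, 8171.5, 4894 and 4973 in adult rats, and 2269.6, 6964, 6410.2, 7399, 6548 and 6887 in older rats. The 6 young arrays lay within 6012 and 6794, whereas all 10 arrays after fracture were above the control in adult rats, by 1.40 to 2.34 times, and in older rats, by 2.82 to 3.26 times. It rose by 0.82 at 1 week (SE 0.29, adjusted p = 0.045) and 0.96 at 2 weeks (adjusted p = 0.039), both with adjusted p of 0.069 and 0.060 without the young arrays of 4 and 6 weeks.

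Early and late weeks were compared by setting 4 and 6 weeks against 0.4 and 1 week in the same fit. Of the 8 genes only Bglap was higher late, by 1.78 on the log2 scale (SE 0.19, adjusted p = 0.00017), where 13.0% of all probe sets were higher, and it was higher in 3 of 3 ages. It stayed past the threshold without the young, adult or older arrays, with changes of 2.10, 1.68 and 1.56 (adjusted p = 0.0022, 0.034 and 0.015). By the probe set that stands for the gene, 0 were lower late, where 10.3% of all probe sets were lower. Besides Bglap, 1 member, Pth1r, had an unadjusted limma p under 0.05 (log2 difference -0.55, adjusted p = 0.085). So had 3213 of the 8740 probe sets, in either direction. Ibsp, the other late gene, was not higher late: its difference was -0.73 (SE 0.41, adjusted p = 0.22). The early genes differed by -0.35 (Alpl, adjusted p = 0.14) and 0.11 (Sparc, adjusted p = 0.86), and Spp1, Ptprv and Mgp by 0.14, -0.52 and -0.16, none past the threshold. Another 3 probe sets were lower late: the second of Alpl by -1.02 (adjusted p = 0.0051), AB012944cds_s_at of Pth1r by -0.97 (adjusted p = 0.046) and rc_AA892248_at of Sparc by -0.40 (adjusted p = 0.047). Of the early and late genes, the change between phases thus passed the test upward for Bglap and downward for 1 of 2 Alpl and 1 of 4 Sparc probe sets. That 1 of Sparc is the probe set that ran against the other 3, and its match to the transcript was not tested. The other 3, Y13714_at, rc_AA891204_s_at and rc_AA946313_s_at, differed by 0.11, 0.07 and -0.41 (limma adjusted p = 0.86, 0.99 and 0.58).

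**Figure D3:**
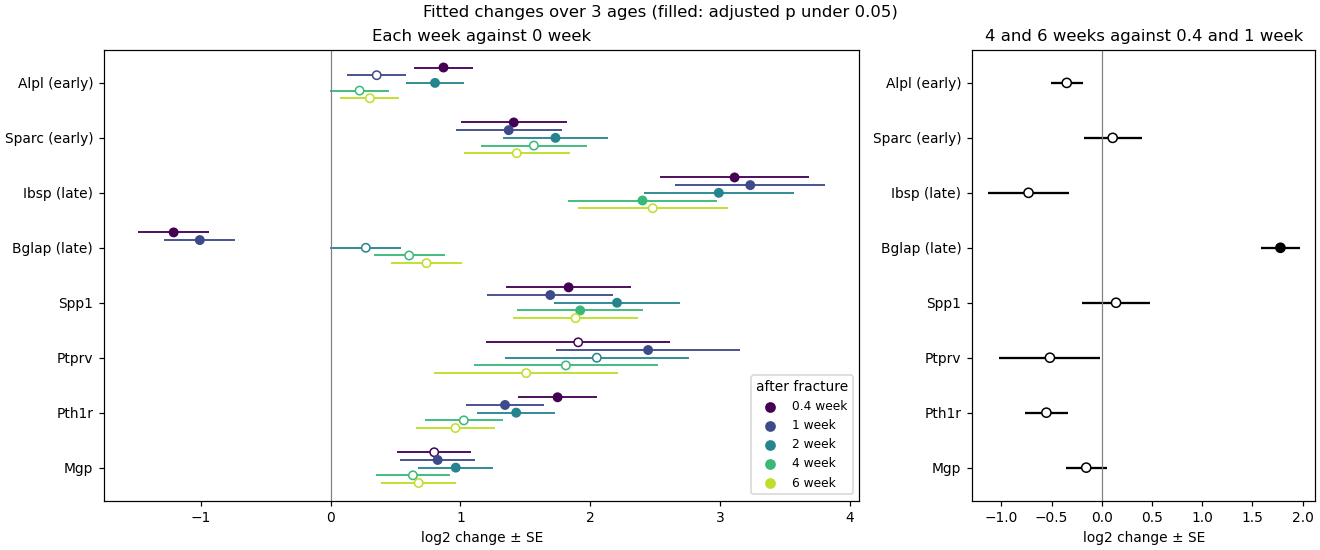
Log2 change ± SE of the 8 genes, fitted over the 3 ages, for each week against 0 week (left) and for 4 and 6 weeks against 0.4 and 1 week (right), with filled points at an adjusted p under 0.05. Bglap is the one gene left of 0 at 0.4 and 1 week and the one filled point on the right, at 1.78.

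Other cell types changed over the same weeks as Bglap. All 7 measured erythroid genes were lower at 0.4 and 1 week and higher at 4 and 6 weeks than at 0.4 and 1 week, as were all 6 measured granulocyte genes. Of 15 skeletal muscle genes 14 were lower at 0.4 week and 14 higher late. Of all probe sets 17.1% were lower at 0.4 week, 20.4% lower at 1 week and 13.0% higher late. The summed erythroid signal was 74319, 19878, 11353, 66526, 70729 and 93837 over the 6 times in young rats, 107727, 19190, 4249.5, 18375, 59962 and 67423 in adult rats, and 102735, 11067, 9427, 12786, 47005 and 47234 in older rats. The granulocyte sum was 893 to 8417 on the arrays of 0.4 week and 15215 to 29669 on the controls. The part of marrow and muscle RNA in the Bglap values was not tested.

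Over the 18 arrays Bglap had low correlations with the other members. Its Pearson r with the representative probe set of the others lay between -0.13 (Pth1r) and 0.32 (Spp1), and was -0.08 with Ibsp. The other 7 were positively correlated, Ibsp at 0.91 with Mgp, 0.90 with Spp1, 0.88 with Sparc, 0.85 with Ptprv, 0.82 with Pth1r and 0.71 with Alpl. These r describe 18 arrays that share 3 ages and 6 times, and are given without a test. Among 3410 probe sets compared, those most like Bglap were Cst3 (r = 0.93), Lcp2 (0.91) and Car2 (0.91), while Ibsp was most like Rpl3 (0.97), Wdfy3 (0.96) and Cltc (0.96). Spp1 was most like Ctbs (0.96), Alpl like Ddost (0.89), Sparc like Fyn (0.95), Ptprv like Ptprs (0.96) and Col3a1 (0.95), Pth1r like Cgref1 (0.92), and Mgp like Dcn (0.94), the small proteoglycan decorin.

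The genes that build and cross-link collagen I for the osteoid, with osteoblast regulators, were mostly higher in the first weeks: 12 of 17 measured were higher and 1 lower at 0.4 week. The counts were 10 higher and 1 lower both at 1 week and at 2 weeks, and 0 in either direction later. Of all probe sets, 14.1% were higher and 17.1% lower at 0.4 week, 14.6% and 20.4% at 1 week, and 9.49% and 10.3% at 2 weeks. Their median log2 difference was 2.07 at 0.4 week, against -0.13 over all probe sets. Lox, which cross-links collagen, rose by 4.94 at 1 week (SE 1.21, adjusted p = 0.011), with signals of 56.1, 9650.3, 12561, 7322.5, 2691 and 2519 over the 6 times in older rats. Serpinh1, the collagen chaperone, rose by 3.13 at 0.4 week (adjusted p = 0.010), P4ha1, a prolyl hydroxylase subunit, by 2.90 (adjusted p = 0.0022) and Col5a1, a fibril collagen, by 2.72 (adjusted p = 0.0058). The gene that fell was Msx2, a homeobox factor of bone precursors, by 1.61 at 1 week (adjusted p = 0.0014). The collagen I chains themselves did not pass at any week, with log2 differences of 0.60 to 1.14 for Col1a1 and 0.64 to 1.19 for Col1a2. A Col1a1 probe set had the highest signal of the young array of 0.4 week (27788) and the adult array of 2 weeks (30029). Whether the scanner's range held it down was not tested. Late against early, 4 of the 17 were lower (Lox, P4ha1, P4hb and Plod1) and Msx2 was higher.

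At each week most genes that control mineral and make Gla proteins were not called. Of 16 measured, 4 were higher and 2 lower at 0.4 week, then 5 higher and 2 lower at 1 week, and 6 higher and 0 lower at 2 weeks. Only 1 was higher at 4 weeks and 0 at 6 weeks, with 0 lower at either. The shares of all probe sets at 0.4, 1 and 2 weeks were 14.1%, 14.6% and 9.49% higher and 17.1%, 20.4% and 10.3% lower. With 16 genes measured, the counts of higher genes at 0.4 and 1 week and of lower genes were not tested against those shares. They are not read as a difference. The median log2 difference of the 16 at 0.4 week was 0.08, against -0.13 over all probe sets. Ggcx, the carboxylase that finishes osteocalcin and matrix Gla protein, rose by 2.16 at 0.4 week (SE 0.28, adjusted p = 0.00045) and was still higher at 4 weeks, by 1.10 (adjusted p = 0.047). It was higher at 0.4 and 1 week, when its substrate Bglap was lower. Anxa2 and Anxa5, annexins of matrix vesicles, rose by 1.91 and 1.37 at 0.4 week (adjusted p = 0.0028 and 0.0047), and Phex, the phosphate-regulating protease of osteocytes, by 2.62 at 2 weeks (adjusted p = 0.031). Car2, carbonic anhydrase of osteoclasts and red cells that is also in the osteoclast list, fell by 3.65 at 0.4 week (adjusted p = 0.00012) and was 3.13 higher late than early (adjusted p = 2.4e-05).

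Partners of osteopontin, bone sialoprotein and the parathyroid hormone receptor had 4 of 14 higher and 1 lower at 0.4 week, 5 higher and 2 lower at 1 week, 5 higher and 1 lower at 2 weeks, and 0 called later. Of all probe sets 14.1%, 14.6% and 9.49% were higher and 17.1%, 20.4% and 10.3% lower at 0.4, 1 and 2 weeks. With 14 genes measured, the small counts of lower genes are again not read as a difference from those shares. Their median log2 difference at 0.4 week was 0.46, against -0.13 over all probe sets. Cd44, a receptor of osteopontin, rose by 1.45 at 1 week (SE 0.19, adjusted p = 0.0011), and Pde4b, which breaks down the cAMP that Pth1r raises, by 1.46 at 0.4 week (adjusted p = 0.0022). Prkaca, a catalytic subunit of the cAMP-dependent kinase, fell by 2.08 at 0.4 week (adjusted p = 0.0029). Mmp9, a gelatinase that is also in the osteoclast list, rose by 3.38 at 2 weeks (SE 1.05, adjusted p = 0.044).

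The ages lay furthest apart before fracture. In the unbroken femur all 8 genes stood in the order young above adult above older, an order that 13.5% of all probe sets had, by the probe set that stands for each gene. Of the 14 member probe sets 12 had it: the exceptions were rc_AA892248_at of Sparc, at 11359, 18362 and 14546 in young, adult and older controls, and the dim M77184_i_at of Pth1r, at 38.0, 182 and 128. The median log2 difference of older from young rats over the 8 genes was -2.14, against 0.11 over all probe sets. The older control had 218 for Ibsp, 1334.5 for Spp1, 2580 for Sparc, 2269.6 for Mgp and 23.9 for Ptprv, where the young control had 1919, 11577, 13541, 6506.5 and 379. After fracture that median was 0.12, -0.09, -0.36, -0.10 and 0.07 over the 5 later times. Each of these is a difference between single arrays, with no error of its own.

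Over the 5 later weeks limma called 0 of the 8 genes different between older and young rats, where 0.0% of all probe sets were called. For 2 members there was an unadjusted p under 0.05: Bglap, with a log2 difference of -1.04 in older rats (SE 0.20, 95% interval -1.50 to -0.58, adjusted p = 0.13), and Spp1, with -0.39 (adjusted p = 0.28). Of the 8740 probe sets 1103 had an unadjusted limma p under 0.05. Bglap was lower in older than in young rats in 5 of 5 weeks, and with probe sets of a mean signal of at least 200 alone limma called 1 member different. The share of all probe sets called in that fit is not given here, and the other settings called 0 members. Over the same weeks the median log2 difference of older from young rats was -1.04 over the 7 erythroid, -1.78 over the 6 granulocyte and -0.92 over the 8 osteoclast genes, and their part in the Bglap difference was not tested. The late minus early change was called different between older and young rats for 0 members, where 0.252% of probe sets were called. For it 1 member, Bglap, had an unadjusted limma p under 0.05, as had 939 of the 8740 probe sets. The late minus early change of Bglap was 0.91 larger in older rats (SE 0.27, adjusted p = 0.29).

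Set against the control of the same age at fracture, the later signal rose further in older than in young rats for 7 of the 8 genes. Of all probe sets 3.57% did. The later rats had aged since fracture and had no unbroken control of that age. Growth of the young rats thus cannot be told apart from fracture here. With 1 control array per age, the standard errors and p-values of this contrast come from the spread of the later weeks, on the assumption that a control array varies as those do, and the spread among controls was not measured. The extra log2 rise by that estimate was 4.21 for Ptprv (SE 0.48, adjusted p = 0.00072), 3.16 for Ibsp (SE 0.56, adjusted p = 0.011), 2.73 for Spp1 (SE 0.32, adjusted p = 0.00096), 2.20 for Sparc, 1.63 for Mgp, 1.51 for Pth1r and 0.99 for Alpl. For Bglap it was 0.86 (SE 0.49, 95% interval -0.27 to 1.99, adjusted p = 0.36). Over all member probe sets 9 of 14 passed. Those that did not, besides Bglap, were the second probe set of Alpl (1.15, adjusted p = 0.19), AB012944cds_s_at (1.97, adjusted p = 0.12) and M77184_i_at (-1.35, adjusted p = 0.60) of Pth1r, and rc_AA892248_at of Sparc (-0.19, adjusted p = 0.85). The calls of Alpl and Pth1r were lost without the young arrays of 4 and 6 weeks (adjusted p = 0.056 and 0.061). Adult set against young rats in the same way, a comparison added after the data were seen, gave 3 members higher (Spp1, Sparc and Alpl), where 2.57% of all probe sets were. Each of these contrasts rests on 1 control array per age and shares it with the comparison of ages at 0 week, so neither is separate evidence.

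**Figure D4:**
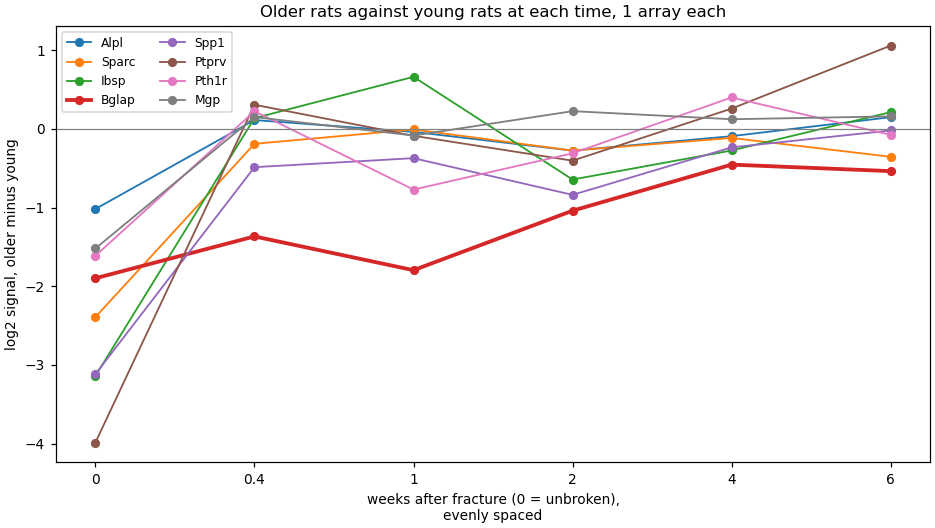
Log2 signal of older minus young rats for the 8 genes at each time, evenly spaced, 1 array of each age per point. All 8 start below 0 at 0 week, from -1.02 (Alpl) to -3.99 (Ptprv). From 0.4 week on 7 of them scatter around 0, within -0.84 and 1.06, and Bglap stays below 0, from -1.80 to -0.45.

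Muscle transcripts were present in the control tissue and on the later arrays. The summed signal of 15 skeletal muscle genes was 174445, 321331 and 253999 in the young, adult and older controls and 45688 to 52394 at 0.4 week. It was 112173 to 154134 at 2 weeks, 123004 to 183985 at 4 weeks and 147760 to 197154 at 6 weeks. Ckm, the muscle creatine kinase, was the highest signal on the adult and older controls. It was also highest on the adult array of 4 weeks and the older arrays of 2 and 6 weeks. The 17 collagen and regulator genes summed to 107074, 42334.7 and 15004 in the young, adult and older controls. From the control of the own age, 13 of the 17 also rose further in older than in young rats, where 3.57% of all probe sets did. The part of muscle in the age differences of the controls was not tested.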

How the data were processed

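RNA was measured on 18 arrays, 1 for each of 3 ages and 6 times, each of RNA pooled by the authors from 2 rats. The deposited intensity values are on a linear scale: the authors took them from the probe pairs with Affymetrix Microarray Suite and set the average of each array to 500, and the trimmed mean of every array was 500.0. All 18 signal columns were used and 0 were left out. Detection calls were not analysed here, nor were arrays of other series.

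Of 8799 probe sets, 59 manufacturer's controls were left out and 8740 were tested. Platform annotation gave 1 gene symbol to 7006, several to 308 and none to 1426, and 4718 of 4737 gene identifiers were found in a current rat gene table. Where a gene has several probe sets, the one brightest over the 18 arrays stands for it, and every member probe set is described. Signals below 20 were raised to 20 before log2 was taken, and nothing else was normalized.

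For changes with time a model with a term for each age and each week was fitted to the 18 arrays by limma 3.58.1 (R 4.3.3), with variances moderated along the signal trend, and p-values were adjusted over the 8740 probe sets by Benjamini and Hochberg's method, with 0.05 as the threshold. Ages were compared over the 5 later weeks, and as changes from the control of the own age, in fits of the same kind. Residual degrees of freedom were 10 for time, 8 for the later weeks and for the change from the own control, and 6 for late minus early by age. The fit was tested on simulated data. Python 3.11.15 and matplotlib 3.10.9 were used for tables and figures. The number of arrays limits the precision.

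Besides the 8 members, 3 pathway lists and 7 lists of other cell types were counted. Of these, 8 of 14 cartilage, 10 of 13 smooth muscle and vessel wall and 6 of 11 macrophage genes were measured. At 0.4 week 4, 2 and 3 of them were higher, where 14.1% of all probe sets were. From each pathway list up to 4 genes with the largest change past the F test were named, and Phex, Msx2, P4hb, Plod1 and the collagen I chains were added after their values were seen. For each member the most similar genes by Pearson r were named. The members and lists were chosen with earlier results of these data known. Alternatives were 1 as the floor, 50 added before log2, quantile and median scaling, a mean signal of at least 200, no trend, the mean of all probe sets of a gene, no age term, leaving out the young arrays of 4 and 6 weeks, each age or each week, and the methods' t-test. The comparison of adult with young rats was added after the data were seen.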

Additional observations from a re-analysis of the deposited data

Results flagged for a closer look

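The rise from the control of the own age differed between older and young rats for 7 members in limma's fit, whose error comes from the later weeks and not from the controls. The difference, older minus young on the log2 scale, was 4.21 for Ptprv, 3.16 for Ibsp, 2.73 for Spp1, 2.20 for Sparc, 1.63 for Mgp, 1.51 for Pth1r and 0.99 for Alpl. All 7 rest on 1 control array per age, so the spread among controls is not in their p-values, and the Ptprv value on a control signal of 23.9 in older rats against 379 in young rats. With a floor of 1 the Alpl value had an adjusted p of 0.051, and with the mean of all probe sets Pth1r was 0.71 (adjusted p = 0.49).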

How the results depend on the processing

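Of 383 alternatives of 29 called changes of the members, 288 kept the call, 95 lost it and 0 changed direction. The number of members called by the F test (4) ran from 0 to 6 when an age was left out. The numbers higher at 0.4 week (5), 1 week (6) and 2 weeks (6) ran from 0 to 7, that at 4 weeks (2) from 0 to 5 and that at 6 weeks (0) from 0 to 8, and the numbers lower at 0.4 week (1) and 1 week (1) from 0 to 1. Leaving out an age leaves 12 arrays and fewer degrees of freedom. The shares of all probe sets called in the alternative fits are not given here, so their counts of members have no background beside them. The methods' t-test was run on log2 values with the 3 ages as the replicates of a time, fewer arrays per time than in the paper's own t tests. With Benjamini-Hochberg adjustment, 0 members were higher at 0.4, 1, 2 or 4 weeks and 0 lower at 0.4 or 1 week. Of all 8740 probe sets, 320, 119, 10, 1 and 0 passed at the 5 weeks in either direction. At an unadjusted p under 0.05 the t-test gave 2, 1, 2, 0 and 0 members at the 5 weeks, where it gave 2415, 2487, 1563, 797 and 578 of all probe sets. It gave 0 members at any week at p under 0.005 or under 0.001. Of all probe sets 607, 516, 243, 90 and 52 were under 0.005, and 199, 151, 68, 20 and 11 under 0.001.

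At 4 weeks 4 members were higher with a floor of 1, 4 with an offset of 50, 4 without probe sets of a mean signal under 200, 1 without the age term, 0 with median scaling and 0 without the young arrays of 4 and 6 weeks. At 6 weeks those settings gave 2 with a floor of 1, 2 with the offset, 3 when dim probe sets (mean under 200) were left out and 1 without these young arrays. Without the age term 0 members were lower at 0.4 week and 0 at 1 week, and with quantile normalization 0 were lower at 1 week. Late against early, 1 member was lower with quantile normalization, 1 with median scaling, 1 with a mean signal of at least 200 and 1 with the mean of all probe sets. Older against young rats, 1 member was called over the later weeks when dim probe sets (mean under 200) were left out. The number with a larger rise from the own control (7) ran from 5 to 6 when an age or a week was left out, and was 3 with adult in place of older rats. The causes were not tested. The late minus early comparison by age cannot be estimated without the young arrays of 4 and 6 weeks. No paired analysis was possible because all arrays carry the same series number, which pairs none of them, and the age that arrays of different weeks share is already a term of the fit.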

Other observations

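Cartilage genes, which mark the callus tissue that bone replaces, were higher beside the bone genes: 7 of 8 measured at 1 week and 7 of 8 at 2 weeks. Of all probe sets 14.6% and 9.49% were higher at these weeks. Their summed signal over the 6 times was 3498.5, 6362, 23295, 26379.5, 7846 and 2426 in young rats, 1212, 6951, 15617, 29709, 7271 and 7216 in adult rats, and 743, 6590.5, 18065, 26584, 12116 and 6783 in older rats. It was thus highest at 2 weeks at all 3 ages, when the adult and older Bglap arrays were first above their controls. Genes of macrophages, which can also make Spp1, were higher for 3 of 6 at 0.4 week and 4 of 6 at 1 and 2 weeks. The shares of all probe sets higher at 0.4, 1 and 2 weeks were 14.1%, 14.6% and 9.49%.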
